A study of Homo sapiens with 6 samples.

Results

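RT-112 is an established human bladder cancer cell line of urothelial origin. The RNA of its scramble-transfected control cells was measured on 2 of the 6 arrays of the series, and the account that follows describes those 2 arrays, called array A and array B, as a baseline profile of the line. The other 4 arrays came from cells given 1 of 2 siRNAs to PPP2R2A, a regulatory subunit of protein phosphatase PP2A (siPPP2R2A_1 and siPPP2R2A_2, 2 arrays each), and were not used. Per the labels, cells in all 3 groups were plated at 50% confluence in medium with serum and antibiotic, received 50 nM siRNA with Lipofectamine RNAiMAX, were transfected again after 24 h, and gave RNA 24 h later. The profile is therefore that of cells transfected 2 times with a non-targeting siRNA. No untransfected culture was analysed here.

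By the submitters' design statement these were technical duplicates. Whether they share a culture or an RNA extract is not stated, so each SD covers only the spread between these 2 measurements, which may be technical. With 1 group, no difference between groups was tested and no p-value is given. Genes were ranked by the mean log2(signal + 1) of their brightest probe set among the probe sets that name exactly 1 gene. A gene was called above background when that probe set exceeded, on both arrays, the 95th percentile of 120 olfactory and taste receptor genes, which was a signal of 117 on array A and 133 on array B. By this rule 10299 of 19775 genes (52.1%) were above background, and 650 passed on 1 array only. Percentiles below are positions among the 19775 genes, and each list count is to be read beside that 52.1%. Because probe sets differ in brightness, a percentile is the rank of a signal and not an RNA amount, and the levels of different genes are not compared.

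The normal urothelium has a basal layer that carries KRT5, intermediate layers, and superficial umbrella cells that coat the bladder lumen with uroplakin plaques. Bladder cancers are commonly described as luminal or basal by which of these programs they keep. The luminal program is driven by the transcription factors PPARG, GATA3 and FOXA1, and the basal program shares keratins and adhesion proteins with the basal cells of stratified epithelium. FGFR3, a receptor tyrosine kinase, is often activated in luminal papillary tumours, and RT-112 is known for a fusion of FGFR3 with TACC3.

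All 4 genes taken as markers of the line were above background on both arrays. With the 99th percentile of the receptor genes as background (712 and 557) FGFR3 was not above it and the other 3 were. FGFR3 read 457 on array A and 411 on array B (mean 434 ± 32.2, SD, n = 2 arrays), at percentile 60.5. Its second probe set read 199 and 172. KRT5, the basal keratin, read 7305 and 7106 (mean 7205 ± 141, SD, n = 2 arrays), at percentile 95.7. KRT13, a keratin of the intermediate and suprabasal layers, read 26033 and 24864 (mean 25448 ± 826, SD, n = 2 arrays), at percentile 99.4. PPARG, the nuclear receptor of the luminal program, read 2790 and 2564 (mean 2677 ± 160, SD, n = 2 arrays), at percentile 87.2. Both arrays thus carried a basal keratin, a suprabasal keratin and a luminal regulator together. In RNA from a whole culture, a program present in fewer cells and one with less RNA per cell cannot be told apart.

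**Figure D1:**
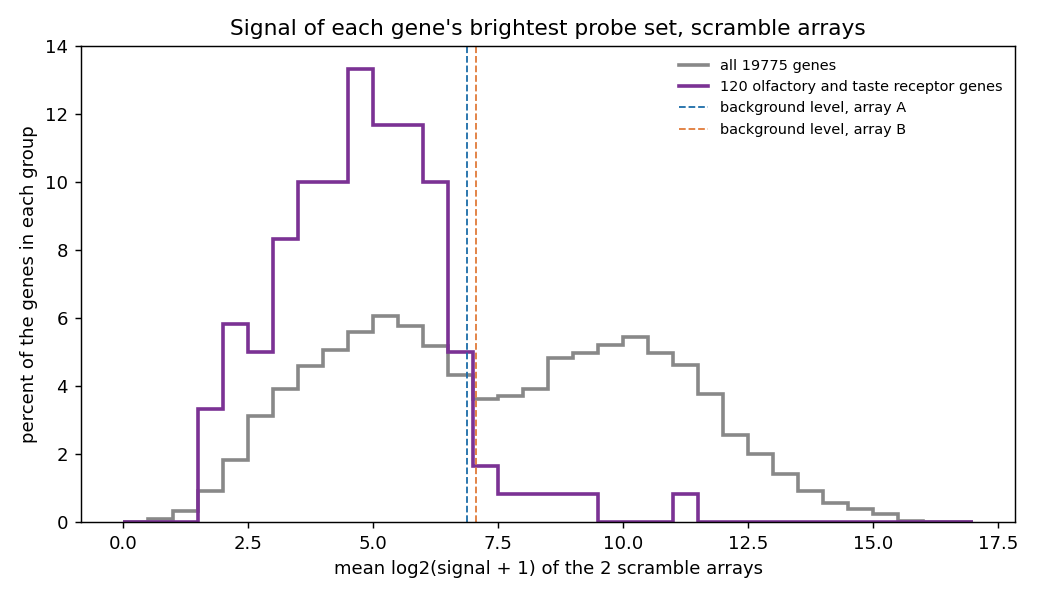
Histogram of the mean log2(signal + 1) of each gene's brightest probe set on the 2 scramble arrays, as a percent of all 19775 genes and of the 120 olfactory and taste receptor genes, with the background level of each array as a dashed line. All genes form a low and a high hump, and 5 of the 120 receptor genes lie above both background levels.

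The duplicates were closer at high signals than at low ones. Across the 10299 genes above background the log2 signals of A and B had a Pearson correlation of 0.992, as a description across genes, and the SD of their log2 difference was 0.22. In that set 248 genes (2.41%) differed by more than 1.5-fold, and none of the 100 highest genes did. Over all genes with a mean log2(signal + 1) from 7 to 8, just around and over the background level, 15.6% did. The 9476 genes not above background had a correlation of 0.66 and an SD of 1.26. The same SD was 1.56 for genes with a mean log2(signal + 1) from 0 to 5, 0.41 from 7 to 8 and 0.10 from 13 to 17. The order of single genes below background was thus repeated only in part, and such a signal is given only to show that it was low. The 3′ to 5′ signal ratio was 5.43 and 5.94 for the ACTB control probe sets and 1.00 and 1.00 for those of GAPDH. For ACTB the 5′ set thus read lower than the 3′ set on both arrays. Whether other probe sets far from the 3′ end read low was not tested, as no probe positions were given.

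**Figure D2:**
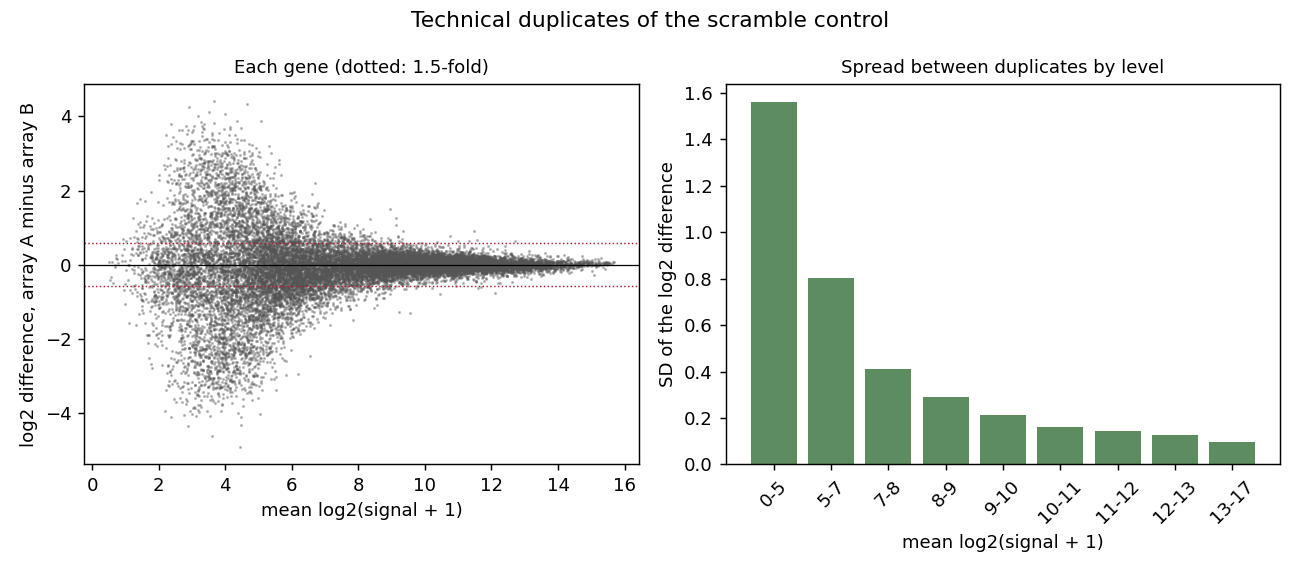
Left, the log2 difference between array A and array B for each gene against its mean log2(signal + 1), with dotted lines at 1.5-fold; right, the SD of that difference in bins of the mean. The scatter narrows from an SD of 1.56 in the lowest bin to 0.10 in the highest.

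The highest signals belonged to the translation machinery and to the mitochondrial genome. Of the 100 genes ranked highest, 40 encode ribosomal proteins and 8 translation factors. Another 5 are mitochondrially encoded and 5 nuclear-encoded subunits of the respiratory chain or the ATP synthase. Among the 30 highest, 19 were ribosomal protein genes and 4 were mitochondrial. Over the whole family, 53 of the 57 ribosomal protein genes measured with a probe set of their own were above background, against 52.1% of all genes. RPS23, a protein of the small ribosomal subunit, ranked first with 53868 and 51300. COX2, a mitochondrially encoded subunit of cytochrome oxidase, followed with 52576 and 50146, and its second probe set read 48521 and 46568. RPL37A of the large subunit read 51029 and 49928. EEF1A1, the elongation factor that delivers tRNA to the ribosome, read 47510 and 45703, and all 5 of its other probe sets were above background. TPT1, a translationally controlled growth-associated protein, read 45001 and 43679.

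Messages of ribosomal proteins and elongation factors are known for a pyrimidine tract at their 5′ end, the TOP motif, through which mTOR signalling controls their translation. The core promoter of the leading members is shown for that reason, from 40 bases before to 20 bases after the RefSeq transcription start (GRCh38.p14). Capitals mark CTTTC where all 5 of its letters lie from 10 bases before to 15 after the start, or TATAA, the core of the TATA box, in the EEF1A1 promoter. RefSeq gives RPS19 a second start, shown too, and TPT1 is shown with them. Neither has a marked motif. CTTTC is a narrow stand-in for a pyrimidine tract, so a promoter without it may still have such a tract. From the start base on, the TPT1 sequence reads cttttcc and the EEF1A1 sequence ctttttc. Both stretches hold pyrimidines alone, and they were not searched for.
RPS23 (chr5:82278335-82278394, minus strand): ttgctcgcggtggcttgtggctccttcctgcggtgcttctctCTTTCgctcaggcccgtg
RPL37A (chr2:216498804-216498863, plus strand): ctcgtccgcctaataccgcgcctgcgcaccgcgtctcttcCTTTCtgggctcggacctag
RPL39 (chrX:119791611-119791670, minus strand): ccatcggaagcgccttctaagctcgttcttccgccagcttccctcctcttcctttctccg
RPL41 (chr12:56116593-56116652, plus strand): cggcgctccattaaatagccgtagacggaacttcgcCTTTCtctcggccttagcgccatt
RPS16 (chr19:39435930-39435989, minus strand): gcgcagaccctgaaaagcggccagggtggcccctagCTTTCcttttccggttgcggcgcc
RPS19 (chr19:41860215-41860274, plus strand): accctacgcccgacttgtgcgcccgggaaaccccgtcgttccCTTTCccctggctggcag
RPS19, second start (chr19:41860364-41860423, plus strand): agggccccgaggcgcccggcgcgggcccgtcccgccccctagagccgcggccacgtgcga
TPT1 (chr13:45341164-45341223, minus strand): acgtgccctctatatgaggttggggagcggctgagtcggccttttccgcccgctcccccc
EEF1A1 (chr6:73521013-73521072, minus strand): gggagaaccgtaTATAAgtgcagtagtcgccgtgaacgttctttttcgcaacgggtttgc

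RPL39, a large-subunit protein that read 49038 and 47511, holds a CTTTC that runs past the end of the searched window and is not counted. CTTTC on the coding strand lay whole in that window in 25 of 56 promoters of ribosomal protein genes (44.6%), where 49 of the 57 genes had a RefSeq promoter. On the opposite strand it lay in 1 of the 56. The share over all 21490 promoters of measured genes was 3.68% (2.22% on the opposite strand), with 3.63% for genes above background and 3.74% for those not above it. Among promoters of the 100 highest genes it was 23.6%, and without the ribosomal protein genes 8.96% (6 of 67). TATAA from 45 to 15 bases before the start was found in 2.68% of promoters of genes above background, in 6.55% of those not above it and in 14.2% of those of the 100 highest, with 4.32% over all promoters (1.59% on the opposite strand). The searched windows of the 2 motifs do not overlap. Promoters of genes above background held a median of 26 CG dinucleotides, from 250 bases before to 50 after the start, and the rest a median of 11. These counts describe letters in a window and were not tested. The CTTTC shares are not shares of promoters with a TOP motif.

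Several genes outside translation stood among the 100 highest. FABP4, a fatty acid binding protein of adipocytes that normal urothelium and low-grade bladder tumours also make, read 31745 and 35433, and its second probe set read 715 and 884. S100A10, a calcium-binding protein and partner of annexin A2, read 36268 and 34426. S100A2, a calcium-binding protein of basal and squamous epithelium, read 31502 and 31190. CTSH, a lysosomal cysteine protease, read 33368 and 32050. KRT7, a simple epithelial keratin, was the single keratin in this range, with 30368 and 28116. SFN, stratifin, an epithelial adaptor protein, read 26751 and 27589, and CAV1, the caveolar coat protein, read 29439 and 27341.

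The kinds of probe set in this top list differed from those over all genes. Whether the kind of set affected the ranks was not tested. Probe sets marked x, which the array maker designates as possibly cross-hybridising, made up 33% of the 100 highest and 5.66% of all genes' brightest probe sets, whereas plain gene-specific sets made up 21% and 69.7%. HUWE1, a ubiquitin ligase, stood among the 30 highest through an x set at 45303 and 45181, whereas its next probe set read 1867 and 1766. PABPC3, a poly(A)-binding protein known from testis, read 34120 and 32768 on its single probe set, also of the x kind. FTH1P5, a ferritin pseudogene, read 32678 and 31017 likewise. For these 3 symbols the signal may include related transcripts, and their place in the ranking is uncertain. A wide gap between probe sets of a gene was common in the 100 highest. Of the 74 with several probe sets, 29 had a next-brightest set over 10-fold lower, among them RPS23 (156 and 172) and KRT7 (267 and 311). Ribosomal proteins, tubulins, actins and GAPDH likewise have many near-identical copies.

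The number of probe sets also moved with the call. Of genes with 1 probe set 35.6% were above background, of those with 2, 58.2%, and of those with 3 or more, 74.2%. Among the 120 receptor genes that set the background, 91 had 1 probe set. The part of probe number in the calls was not tested.

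The luminal regulators were above background as a group. All 15 listed genes passed, with a median percentile of 78.0 against 50.0 for all genes. With the 99th percentile as background 12 of the 15 passed, and GRHL3, TBX2 and ZBTB7C did not. GATA3, the zinc-finger factor that marks luminal urothelium, read 15031 and 14714 at percentile 98.6, and both of its other probe sets were above background. EHF, an epithelial ETS factor, read 9247 and 9167. GRHL2, a grainyhead factor of epithelial junctions, read 5279 and 3927, higher on array A. KLF5, a Krüppel-like factor of urothelial differentiation, read 2871 and 2757. RXRA, the heterodimer partner of PPARG, read 2795 and 2752, and ELF3, an ETS factor downstream of PPARG, read 2329 and 2145. FOXA1, the pioneer factor of the luminal program, read 964 and 976 at percentile 72.2. TBX3, a T-box repressor, read 952 and 1046. The lowest 2 members were GRHL3, which takes part in umbrella cell differentiation, at 194 and 202, and TBX2 at 152 and 223. Both lay close to the background level.

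The end products of umbrella cell differentiation were split. Of 15 uroplakin and umbrella cell genes 8 (53.3%) were above background, close to the 52.1% of all genes. The median percentile of the 15 was 48.4, and the other 7 were below background on both arrays. With the 99th percentile as background 4 passed. UPK1B, the tetraspanin uroplakin, read 6648 and 6532, and its second probe set read 6571 and 6319. ADIRF, an adipogenesis-related factor found in luminal urothelium, read 3405 and 3420. ACER2, an alkaline ceramidase, read 1382 and 1324. CYP4B1, a cytochrome P450 of the bladder, read 684 and 588, and PSCA, a surface antigen of prostate and urothelium, read 537 and 662. UPK3B read 550 and 521, and UPK2, which pairs with UPK1B's relative UPK1A in the plaque, read 139 and 154, just over the background level. Of the genes below background, UPK1A read 10 and 65 and UPK3A, the partner of UPK1B, read 6 and 7. KRT20, the keratin of umbrella cells, read 44 and 93. TMPRSS2, a luminal serine protease, read 19 and 17, and all 4 of its probe sets were below background. Of the 4 uroplakins of the plaque, UPK1B and UPK2 were thus called above background and UPK1A and UPK3A were not.

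Of 44 keratins measured, 13 (29.5%) were above background. KRT6A, KRT6B, KRT6C and KRT17 were not among the 44, as no probe set named any of them alone. The simple keratins of glandular and luminal epithelium all ranked at percentile 97.3 or higher. KRT19 read 25687 and 25959, KRT18 24292 and 24704, and KRT8 10077 and 9755. KRT18 and KRT8 each had 1 probe set, of the x kind, and both have many processed pseudogenes. KRT10, a suprabasal keratin of epidermis, read 6217 and 6163, and KRT80, a widely expressed epithelial keratin, read 3590 and 3100. KRT23 read 1136 and 944. KRT4, the mucosal partner of KRT13, read 870 and 871. KRT15, a keratin of basal cells, read 596 and 757, and KRT16, a keratin of activated keratinocytes, read 315 and 305. KRT9 was just over background at 143 and 181. KRT14, the usual partner of KRT5 in basal cells, was not above background, at 82 and 62 on its single probe set. KRT5 was therefore called on both arrays, and KRT14 was not detectable at this signal.

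Most of the measured members of the basal list were above background. Of 16 measured, 12 passed, with a median percentile of 85.0. Another 8 of the 24 listed genes were not analysed here, so the count does not cover the whole list. CD44, the hyaluronan receptor of basal cells, read 9056 and 8962. TRIM29, a basal epithelial regulator, read 8594 and 8608. LAMB3, a chain of the basement membrane laminin, read 7799 and 8518. Its receptor chains ITGA6 and ITGB4 read 4417 and 4190, and 2988 and 2258, respectively. CDH3, P-cadherin, read 4740 and 4106, and DST, a hemidesmosome linker, read 3615 and 3585. EGFR, a growth factor receptor high in basal tumours, read 2292 and 1769. DSG3, a desmosomal cadherin of stratified epithelium, read 948 and 853. Besides KRT14, the basal genes not above background were BNC1, basonuclin, at 29 and 49, DSC3, a desmocollin, at 32 and 17, and NGFR, the low-affinity nerve growth factor receptor of basal stem cells, at 7 and 9.

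Genes of squamous differentiation were present in part. Of 22 measured members 12 (54.5%) were above background, close to the 52.1% of all genes, with a median percentile of 52.9. Another 4 passed on 1 array only. LY6D, a surface protein of stratified epithelium, read 21944 and 23130. IVL, involucrin, the first scaffold of the cornified envelope, read 12607 and 12841. S100A9 and S100A8, which form calprotectin, read 10250 and 12653, and 8177 and 10635, both higher on array B. SPRR3, a small proline-rich envelope protein of mucosa, read 7740 and 8944, and CSTA, a protease inhibitor of the envelope, read 7501 and 8294. SPRR1B read 2225 and 2237, and SPRR1A read 1701 and 2107. SERPINB13, a keratinocyte serpin, read 936 and 940. SERPINB3, the squamous cell carcinoma antigen, read 289 and 335 on a probe set of the x kind, whose signal may include related transcripts. Its second probe set read 126 and 157. S100A7, psoriasin, read 136 and 194. Of the 10 members not above background, 6 were below it on both arrays, including LORICRIN, loricrin of the mature envelope, at 8 and 9, FLG, filaggrin, at 54 and 46, the crosslinking enzyme TGM1 at 38 and 10, and SERPINB4 at 25 and 32. The 4 that passed on 1 array were CNFN, cornifelin, at 113 and 161, KLK7, a protease of the cornified layer, at 44 and 133, S100A12 at 107 and 187, and the elastase inhibitor PI3 at 118 and 115.

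Receptor tyrosine kinases were represented by fewer than 1 in 2 members, 25 of 55 measured (45.5%), close to the share of all genes, with a median percentile of 42.7. With the 99th percentile as background 13 passed. In the EGF receptor family, ERBB3, a kinase-impaired receptor for neuregulins, read 3313 and 3552. ERBB2, which has no ligand of its own, read 1042 and 905. ERBB4 was below background at 48 and 24, so 3 of the 4 family members were above it. In the FGF receptor family, FGFR2 read 513 and 591, and of its 11 probe sets 2 others were above background. FGFR1 read 532 and 420 on a probe set of the x kind, and its next probe set read 199 and 249. FGFR4 was below background at 42 and 49. TACC3, a mitotic spindle protein and the fusion partner of FGFR3 named above, read 1688 and 1711 on its single probe set. The files give no probe positions, so a fused transcript cannot be told apart from the separate genes. RYK, a Wnt receptor, read 3923 and 3360. MET, the hepatocyte growth factor receptor, read 2985 and 3023 on 1 of its 4 probe sets, the others not being above background. EPHB4, an ephrin receptor, read 1748 and 1478, IGF1R, the insulin-like growth factor receptor, 1645 and 1481, and AXL, the receptor for GAS6, 1459 and 1254. KIT, the stem cell factor receptor, read 5 and 12, and PDGFRA, a receptor of mesenchymal cells, read 18 and 48.

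Fewer of the measured ligands were called. Of 9 EGF family ligands measured 3 (33.3%) were above background, and another 2 of the 11 listed were not analysed here. TGFA, a ligand of EGFR, read 1854 and 1866 on the brightest of its 3 probe sets. HBEGF, a ligand of EGFR and ERBB4, read 926 and 1120. NRG1, a ligand of ERBB3, read 276 and 268 on the brightest of its 6 probe sets. The other probe sets of TGFA and NRG1 were not above background. EREG read 25 and 33, and EGF itself read 6 and 51. Of 22 FGF ligands 2 (9.09%) were above background, and both belong to the intracellular subfamily. FGF13, a channel-associated factor that is not a classical receptor ligand, read 287 and 255, and FGF11, of the same subfamily, read 209 and 197. FGF1 read 81 and 74, and FGF2 read 7 and 7. No secreted FGF was above background on both arrays. Among 9 measured partners of the FGF receptors 6 passed, including the heparan sulphate carriers SDC4 and SDC1, the adaptor GRB2, and FGFBP1, which releases FGFs from the matrix.

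**Figure D3:**
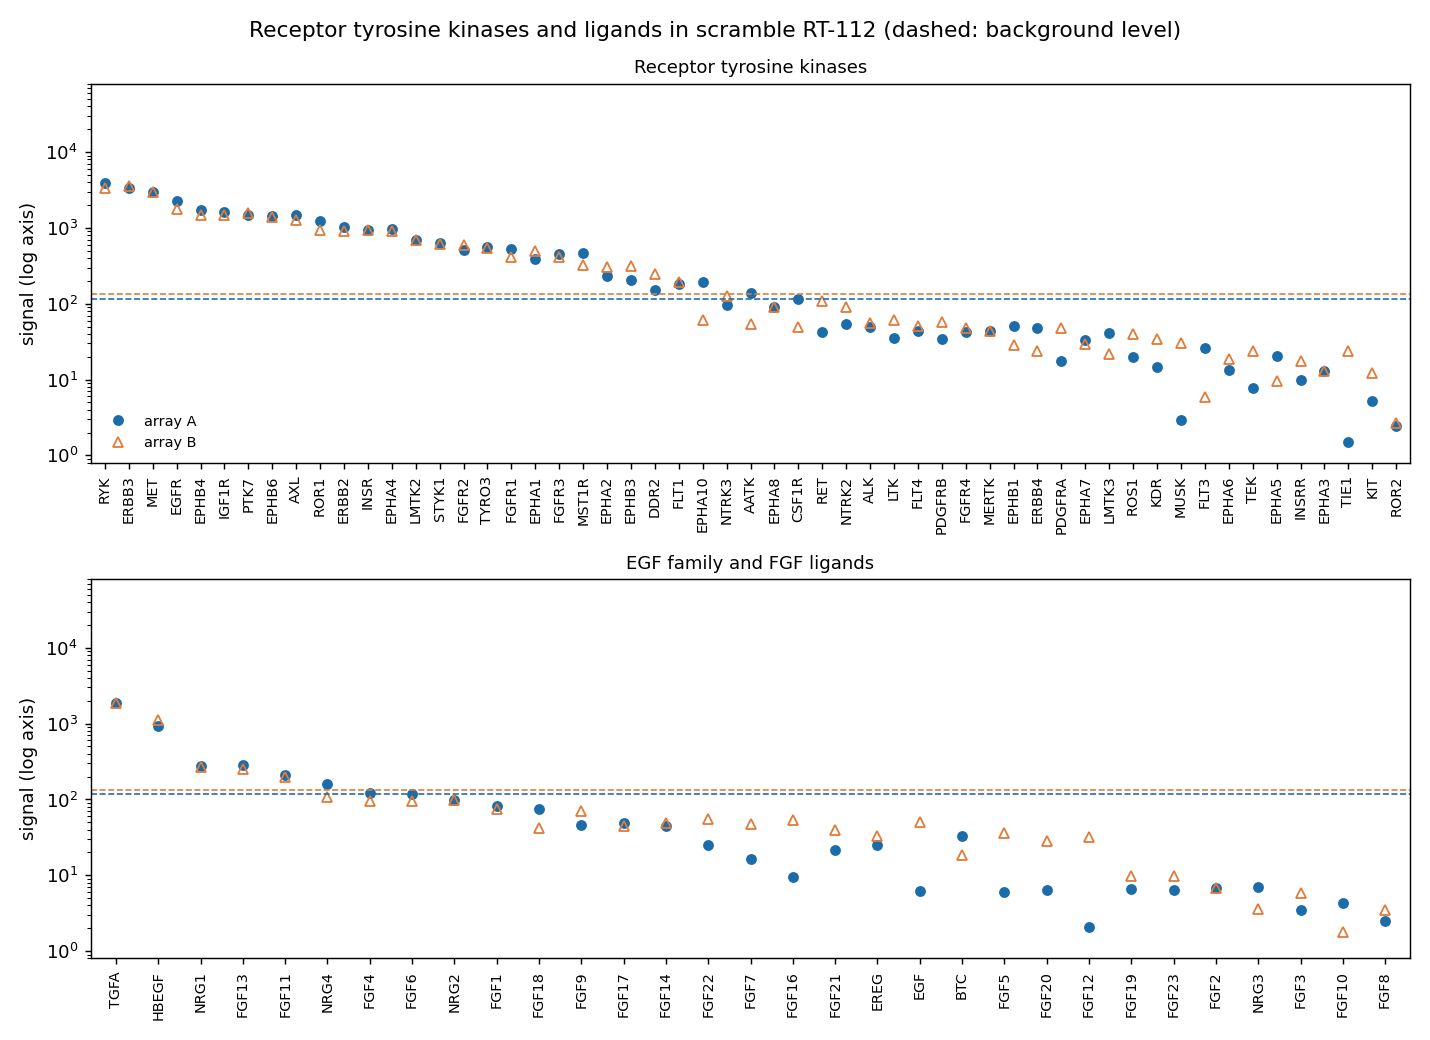
Signal on a log axis of 55 receptor tyrosine kinases (top) and of 31 EGF and FGF family ligands (bottom), ordered by mean, with array A as filled circles, array B as open triangles and dashed lines at the background levels. On both arrays 25 receptors lie above background and 5 ligands do.

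Of 39 nuclear receptors measured 20 were above background. PPARD, a ubiquitous relative of PPARG, read 3017 and 2939. The others of high signal were RXRA, PPARG, NR2F6, the glucocorticoid receptor NR3C1, NR2C2, NR1D2 and the vitamin D receptor VDR. Estrogen receptor ESR1 was above background on array B only, at 114 and 155, and the progesterone receptor PGR was below it at 26 and 32. Among receptors of the Notch, Wnt, TGF-beta and hedgehog pathways 22 of 26 were above background, led by the Wnt receptor FZD6 at 5830 and 5571, TGFBR2 at 5785 and 5047, and NOTCH2 at 4683 and 4786. Surface antigens that are targets of antibody therapy or imaging in carcinoma were above background in 11 of 12 cases. EPCAM read 13348 and 12204, tissue factor F3 read 8428 and 6946, and the carcinoembryonic antigens CEACAM6 and CEACAM5 read 3083 and 3902, and 2222 and 2531. FOLR1, the folate receptor, read 1994 and 1971, and NECTIN4, the target of enfortumab vedotin, read 583 and 628. MSLN, mesothelin, was below background at 30 and 13.

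The cells carried an epithelial adhesion program with a few mesenchymal genes. Of 17 adhesion genes measured 15 were above background, with a median percentile of 87.5. CDH1, E-cadherin, read 16923 and 15824, and DSP, desmoplakin, CTNNB1, beta-catenin, and DSG2, a desmosomal cadherin, were all at percentile 97.6 or higher. DSC2, a desmocollin, at 36 and 31, and CLDN3, a tight junction claudin, at 34 and 13, were below background. Of 14 mesenchymal genes 5 were above background. FN1, fibronectin, read 6631 and 5937, and SNAI2, a zinc-finger repressor also present in basal epithelium, read 4858 and 4881. S100A4 read 1412 and 1359, CDH2, N-cadherin, 806 and 1040, and TWIST2 227 and 262. VIM, vimentin, the intermediate filament of mesenchymal cells, read 80 and 82, and the repressors ZEB1 and ZEB2 read 36 and 32, and 12 and 24. E-cadherin, SNAI2 and fibronectin were thus all above background, and vimentin was below it.

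All 16 proliferation genes were above background, with a median percentile of 93.1, including MKI67, the antigen of cycling cells, TOP2A, a topoisomerase of S and G2 phase, and PCNA, the replication clamp. Of 28 genes recurrently altered in bladder cancer 26 were above background. The 2 that were not are CDKN2A, at 64 and 62, and CDKN2B, at 31 and 10, neighbouring genes for inhibitors of the cyclin D kinases. No probe set of either gene was above background (3 and 2 probe sets). CCND1, cyclin D1, stood at percentile 92.8, and RB1, the retinoblastoma protein that these inhibitors protect, at 85.2. Of 28 HOX genes, which mark position along the body axis, 14 were above background, led by HOXB7 at 2444 and 2672. Of 14 mucins 3 were above background, MUC20, MUC1 and MUC5AC. Of 19 cancer-testis antigens, which are silent in most adult tissues, 2 were above background, MAGEA6 at 5095 and 5273 and MAGEA12 at 736 and 788. Both were read with an x probe set, and members of the MAGEA family are near-identical, so which of them was transcribed is uncertain.

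Genes that define other lineages were mostly not above background. Over 15 lists (leukocyte, endothelial, fibroblast, smooth and skeletal muscle, neuroendocrine and neural, erythroid, hepatocyte, prostate, kidney, intestine, lung and thyroid, melanocyte, germ cell and pancreas) 114 of 129 genes were measured, and 15 (13.2%) were above background, against 52.1% of all genes. The median percentile was 25.6, and 93 of the 114 were below background on both arrays. The leukocyte list had 0 of 18 above, with the pan-leukocyte antigen PTPRC at 35 and 23 and the T cell chain CD3E at 18 and 59. The skeletal muscle (0 of 8), neuroendocrine and neural (0 of 10), hepatocyte (0 of 8), intestinal (0 of 8) and pancreas (0 of 4) lists also had none on both arrays, though the leukocyte, neuroendocrine and hepatocyte lists each had 1 member above on array B. Albumin, ALB, read 32 and 26, chromogranin CHGA 45 and 29, and the intestinal regulator CDX2 8 and 12. Not above background means that a gene was not detectable at this signal, not that its RNA was absent.

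Of the 15 lineage genes above background, 10 read under 500 on both arrays and 6 had another probe set above background. All 15 had more than 1 probe set, so each call is that of the brightest of several. LUM, lumican, a proteoglycan of fibroblast matrix, read 4975 and 4715, and its second probe set read 172 and 172. Beside it COL1A1 of type I collagen read 1116 and 960, whereas its partner chain COL1A2 read 26 and 23 and COL3A1 read 15 and 17. TFAP2C, a factor of germ cells that is also found in epithelia, read 3702 and 3586. MITF, the melanocyte regulator with isoforms in many tissues, read 1265 and 1087, whereas the melanocyte proteins PMEL and MLANA read 17 and 92, and 27 and 24. TAGLN, a smooth muscle actin-binding protein, read 1159 and 1269, ACTG2 263 and 253, and ACTA2 216 and 149, whereas MYH11, the smooth muscle myosin, read 66 and 60. PAX8, a kidney and thyroid factor, read 398 and 469 on 1 of its 8 probe sets. ACP3 and KLK3, enzymes of the prostate, read 325 and 395, and 240 and 285, and the 2 other KLK3 probe sets were below background. PECAM1, an endothelial adhesion molecule, read 210 and 240, while CDH5, the endothelial cadherin, passed on array A only, at 134 and 123. The remaining 4 were the surfactant proteins SFTPB and SFTPC, the beta-globin HBB and the water channel AQP2, which lay between 135 and 221, near the background level. No lineage list other than smooth muscle had 3 of its members above background.

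**Figure D4:**
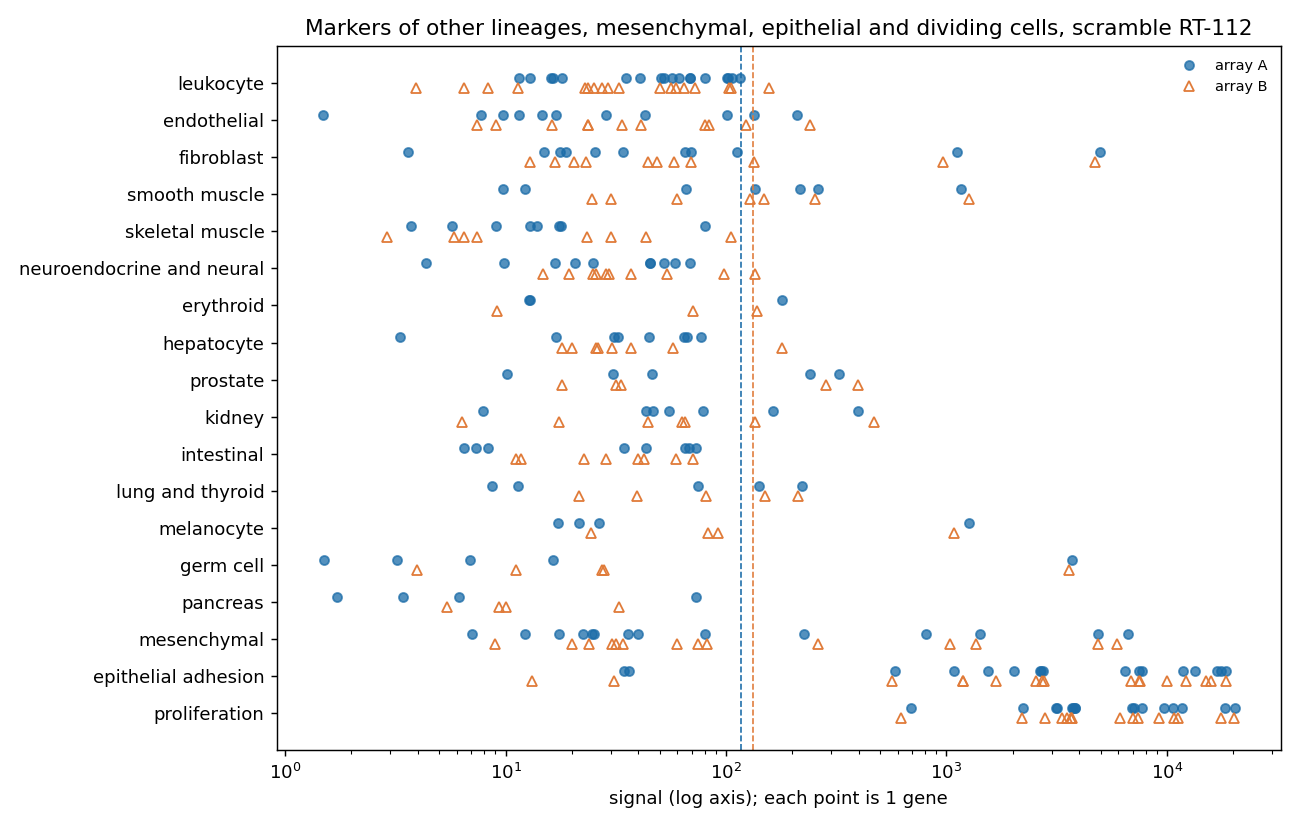
Signal on a log axis for every measured gene of 15 lists of other lineages and of the mesenchymal, epithelial adhesion and proliferation lists, with 1 point per gene and array (A, filled circles; B, open triangles) and dashed lines at the background levels. The lineage lists lie mostly to the left of the dashed lines (15 of 114 genes above), the adhesion and proliferation lists to the right (15 of 17 and 16 of 16).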

How the data were processed

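RNA of RT-112 cells was labelled with biotin and read on Affymetrix oligonucleotide arrays. The deposited table holds 1 linear signal intensity per probe set and array for 54675 probe sets. The authors scaled it with Affymetrix Expression Console, per the submitters' processing notes. For the version and the algorithm, nothing was given in the sources used here. The 2 percent trimmed mean was 500.07 on both scramble arrays, and the median signal was 70.9 and 76.2. The number of arrays limits the precision.

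From the deposited intensity values, log2(signal + 1) was taken with no further scaling (Python 3.11.15, numpy 2.4.6, pandas 2.3.3). Names came from the platform annotation. Of all probe sets 41097 had 1 symbol, 1801 several, 11721 none and 62 were controls, and 41043 of the 41097 matched a RefSeq gene by Entrez number with no symbol changed. Each of 19775 genes was represented by its brightest probe set with 1 symbol. Of the 120 reference receptor genes 20 are pseudogenes. Promoters were RefSeq sequences (GRCh38.p14).

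The members and lists were chosen with earlier results of these data known. The rule for named genes took the 4 markers, the 30 highest genes, every urothelial, EGF and FGF family member above background, up to 8 of every other list, every lineage gene above background, and the 5 largest differences between the arrays in each direction. Genes named as not above background, others of the 100 highest, and the neighbours of CDKN2A were picked with their values known.

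The alternatives were each array alone, centring on medians, quantile normalization, a pseudocount of 16, the mean over all probe sets of a gene, plain probe sets alone, sets with several symbols counted, other background levels, and, added after seeing the data, a reference without pseudogenes.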

Additional observations from a re-analysis of the deposited data

Results flagged for a closer look

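Probe sets without a single gene symbol, which the ranking leaves out, also carried signal on the scramble arrays. Of 1801 probe sets with several symbols, 901 were above background on both arrays, as were 2184 of 11721 probe sets with no symbol. Among the 100 brightest probe sets of the arrays, 57 had 1 symbol, 32 had several, 8 had none and 3 were controls. With 2 arrays, no check for an outlying array was possible.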

How the results depend on the processing

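The number of genes above background was 10299, and 10557 with array B alone and 10727 with array A alone. It was 10703 against a reference without pseudogenes. With the 99th percentile of the receptor genes as background it fell to 6418 genes (32.5%), and 4 uroplakin and umbrella cell genes, 13 receptor tyrosine kinases and 5 genes of other lineages were then above it. With the mean over all probe sets of a gene, 6 genes of other lineages were above background, and 45 of the 100 highest genes were shared with the main ranking. Plain probe sets alone shared 27 of the 100 highest, and counting probe sets with several symbols shared 54. For the remaining lists, 306 of 360 values under the alternatives lay within 1.5 times the main count and 54 beyond it. Of these 54, 14 came with plain probe sets alone (bladder cancer genes 15 for 26, HOX genes 9 for 14, surface antigens 7 for 11, mesenchymal genes 3 for 5), 11 with the 99th percentile (Notch, Wnt, TGF-beta and hedgehog receptors 14 for 22, HOX genes 3 for 14, surface antigens 7 for 11, FGF ligands 0 for 2), 8 with the mean over probe sets (nuclear receptors 12 for 20) and 7 with the array median as background (mucins 7 for 3). The other 14 were moves between 0 and 4 members. With plain probe sets alone, a list member without such a set left the count. A lower count there therefore mixes members no longer measured with members that lost their call. Of 615 named genes, 171 moved by over 10 percentiles with the mean of the probe sets, 36 with array B alone, 22 with array A alone and 0 with another scaling or pseudocount. With plain probe sets alone 73 moved and 128 had no such probe set. The cause was not tested. No paired analysis was possible because no groups were compared. Signals under the background level, where the SD of the log2 difference was 1.26, order single genes only loosely. Technical duplicates say nothing of the spread between cultures.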

Other observations

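The genes beside CDKN2A on the short arm of chromosome 9 were looked at after its level was seen, in RefSeq order and with no coordinates. MLLT3, a factor of transcription elongation, read 477 on array A and 377 on array B, FOCAD, a focal adhesion protein, read 1112 and 1062, HACD4, which follows it, read 15 and 25, and KLHL9, a ubiquitin ligase adaptor, read 1816 and 1660. Of the 11 measured genes from the one after KLHL9 to DMRTA1, 0 were above background, and the highest signal was 103. These 11 include CDKN2A and CDKN2B themselves and 4 interferon genes. Among them is MTAP, a methionine salvage enzyme made in most tissues, which read 53 and 61, with 0 of its 6 probe sets above background. Beyond them ELAVL2, an RNA-binding protein, read 1357 and 1237, and TUSC1 read 3737 and 3676. Over the region 14 interferon genes were measured, those 4 included, and none was above background on both arrays, with 134 the highest signal. Copy number was not measured.

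Among genes above background, the largest differences between the duplicates were in RNF167, at 838 on array A and 296 on array B, ATG2A (864 and 363), BAIAP2-DT (493 and 210), ZNF681 (358 and 169) and RNF26 (815 and 387), all higher on array A. Higher on array B were LINC03068 (136 and 382), LYSMD4 (478 and 1185), YIF1B (385 and 925), ST3GAL3 (142 and 327) and BTN2A2 (140 and 321). Both arrays hold the same condition, so these values show the size that a difference between technical duplicates reached.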
